A study of Mus musculus with 12 samples.

Results

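A set of 10 genes of the plasma-cell and secretory programme were followed in precursor B cells of mouse bone marrow: the transcription factors Xbp1 and Prdm1, the surface proteoglycan Sdc1, the antibody-assembly genes Jchain and Mzb1, the endoplasmic reticulum (ER) genes Hspa5, Creld2, Derl3 and Edem1, and the elongation factor Ell2. Each was read from the transcript cluster that carries its symbol. All 10 were found, 1 cluster each, among 19938 genes with a cluster of their own. The arrays form 3 groups of 4: Cd72+/-;Pax5+/-, in which a copy of Cd72 and a copy of Pax5 are lost, Pax5+/-, in which only a copy of Pax5 is lost, and wild type (WT). All mice were 1 month old and kept in a specific pathogen-free area. Every array is labelled as pro-B cells of the bone marrow, which the protocol says were purified, while the cell-type labels call the cells of the Cd72+/-;Pax5+/- and Pax5+/- groups preleukemic. How the alleles were made is not in the labels. The labels do not say whether a group's arrays are separate animals, pools or repeats, so p-values measure the spread between arrays, which may be technical.

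When an activated B cell becomes a plasma cell, Prdm1 (Blimp-1) shuts down the B-cell programme, Pax5 included, and Xbp1 expands the ER for antibody secretion. Xbp1 protein is made in its active form after the ER stress sensor Ire1, the product of Ern1, splices the Xbp1 mRNA, and it then induces genes for protein folding and for disposal of misfolded protein. Pax5 in turn holds down Xbp1, Prdm1 and Jchain in B cells, so the genes are a known readout of Pax5 function. Pro-B cells do not secrete antibody. A cluster's signal does not separate spliced from unspliced Xbp1 mRNA.

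The deposited values are log2 signals, and a difference of 1 is a 2-fold change. Precursor B-cell genes had strong signals: Vpreb1 and Igll1, which form the surrogate light chain, lay at 12.57 to 12.79 and 12.79 to 13.23 in Cd72+/-;Pax5+/-, 12.39 to 12.74 and 12.62 to 13.33 in Pax5+/-, and 11.95 to 12.7 and 12.49 to 13.04 in WT. Tnfrsf17, a receptor that defines mature plasma cells, stayed within 5.76 and 5.93 on every array. Pax5 itself read 11.11 to 11.31 in Cd72+/-;Pax5+/-, 10.65 to 11.21 in Pax5+/- and 11.4 to 11.72 in WT, and Cd72 read 7.34 to 7.67, 10.03 to 10.27 and 8.43 to 9.39 in the same order. Whether these clusters lie inside the deleted parts is not given in the sources used here. The X-inactivation RNA Xist was strong in Cd72+/-;Pax5+/- (11.75 to 11.9) but weak elsewhere (5 to 5.38 in Pax5+/-, 5.09 to 5.52 in WT), so genotype and sex cannot be told apart wherever Cd72+/-;Pax5+/- is compared. Replicates 1 and 3 were closest to each other in WT and in Pax5+/-, as were replicates 2 and 4, and the mean of 13 stromal and endothelial markers followed the same division (7.80 and 7.87 against 7.17 and 7.20 in Pax5+/-, 8.07 and 8.05 against 7.64 and 7.65 in WT). Its 4 values in Cd72+/-;Pax5+/-, 7.04 to 7.17, were no higher than on any other array. Of the 13 markers, Alpl (-2.245), Cxcl12 (-1.92) and Sparc (-1.97) were lower in Cd72+/-;Pax5+/- than in WT, and Alpl was lower in Pax5+/- than in WT (-3.775). There Sparc (-0.31), Cxcl12 (-0.335) and Col1a1 (-0.20) did not pass. Alpl did not follow the division of the list mean. It read 10.76 and 10.85 on WT replicates 1 and 3, 11.34 and 11.42 on replicates 2 and 4, and 7.26 to 7.37 in Pax5+/-. Alpl was higher (1.53) and Cxcl12 lower (-1.58) in Cd72+/-;Pax5+/- than in Pax5+/-. Several members followed that division too, as described gene by gene. The part of the stromal signal in them was not tested. Granulocyte, monocyte, erythroid and T and NK markers gave list means of 5.95 to 6.78 in Cd72+/-;Pax5+/-, 6.02 to 6.79 in Pax5+/- and 5.99 to 6.97 in WT, with at most 1 marker of a list called in either direction. The monocyte marker Ccr2 was lower in Cd72+/-;Pax5+/- than in WT (-3.58) and in Pax5+/- (-3.915). The erythroid marker Aqp1 was higher in the same comparisons (1.245 and 1.795), and lower in Pax5+/- than in WT (-0.55). With the closest pairs averaged, both genes kept their calls in the comparisons of Cd72+/-;Pax5+/-. Cd68, a marker of the same list as Ccr2, was higher in Cd72+/-;Pax5+/- than in WT (0.36) and in Pax5+/- (0.48). Lat fell (-0.675) and Nkg7 rose (0.54) in Pax5+/- against WT. Lat was higher (0.63) and Nkg7 lower (-0.69) in Cd72+/-;Pax5+/- than in Pax5+/-. With the closest pairs averaged, Lat kept both calls (limma adjusted p = 0.0336 and 0.033), and Cd68 and Nkg7 lost theirs. Of 15 pro-B identity genes, 3 rose and 2 fell in Pax5+/- against WT, against 4.28% and 3.2% of all clusters. Among them Cd93 (1.27) and Cd24a (0.75) rose and Tcf3 fell (-0.475). In Cd72+/-;Pax5+/- against WT, 1 rose and Dntt fell (-2.34), against 4.12% and 3.66%. Against Pax5+/-, 2 were higher and 3 lower, with Dntt at -2.12, against 4.44% and 5.35%. None of these calls was left when the closest pairs were averaged. In bulk RNA, fewer cells of a kind cannot be told apart from less RNA per cell.

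In cells that had lost a copy of Pax5 alone, members were called in both directions. Ell2 and Sdc1 rose in Pax5+/- against WT, Xbp1, Mzb1 and Derl3 fell, and Prdm1, Jchain, Creld2, Edem1 and Hspa5 did not pass (limma, Benjamini-Hochberg adjusted p under 0.05). So 5 of 10 members were called, against 7.47% of all 23410 clusters tested, where 4.28% rose and 3.2% fell. The count was 3 with the closest pair of arrays as a random block, where Mzb1 and Derl3 lost their calls, and 1, Ell2, with those pairs averaged. The arrays of 5 members (Xbp1, Sdc1, Mzb1, Derl3 and Ell2) did not overlap, against 10.7% of all clusters. The median absolute difference was 0.46 over the members and 0.067 over all clusters. All clusters include many dimmer than most members, and these figures were not matched for signal. Only Ell2 passed in Cd72+/-;Pax5+/- against WT, 1 of 10 against 7.78% of all clusters (4.12% higher, 3.66% lower). The arrays of Ell2 and Jchain did not overlap there, against 14.8% of all clusters, and the median absolute difference of the members was 0.085 against 0.07 over all clusters. The mutant groups differed in 5 of 10 members against 9.79% of all clusters: Mzb1 and Derl3 were higher in Cd72+/-;Pax5+/- than in Pax5+/- (4.44% of all clusters were), and Sdc1, Jchain and Ell2 were lower (5.35%). Averaging the closest pairs left 2 of these 5 called, Sdc1 and Ell2. There Xbp1, Sdc1, Jchain, Derl3 and Ell2 did not overlap, 5 of 10 against 18.5% of all clusters. These comparisons share arrays, so they are not independent of each other.

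**Figure D1:**
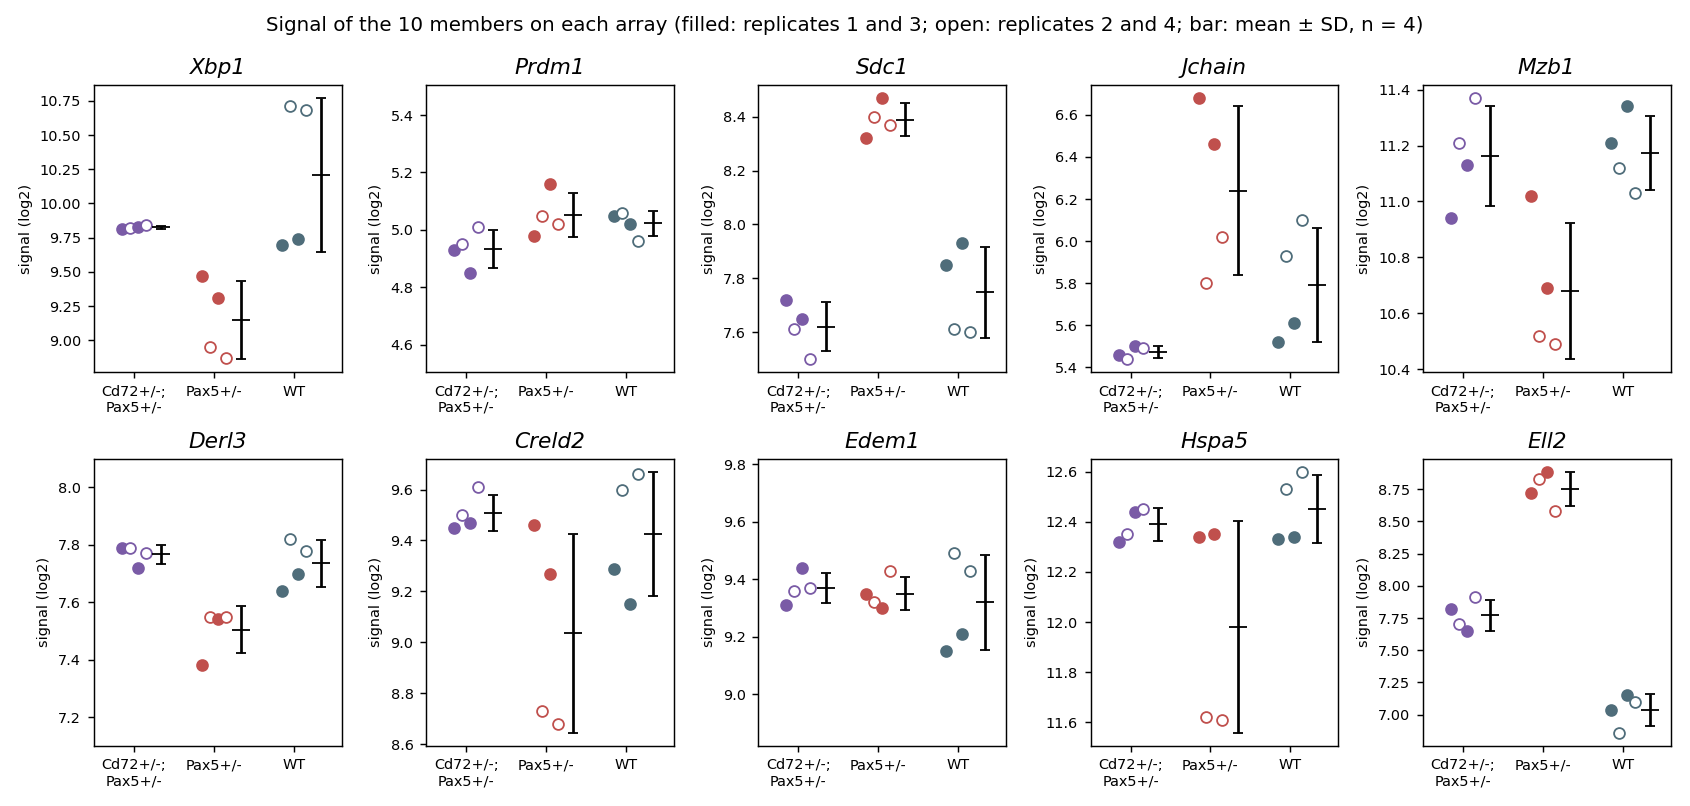
Log2 signal of each member (vertical axis, at least 1 unit high in each panel) on the 12 arrays, with replicates 1 and 3 filled, replicates 2 and 4 open, and the mean ± SD of 4 arrays beside them. Ell2 falls into 3 separate levels. Xbp1, Jchain, Creld2 and Hspa5 divide the Pax5+/- arrays and the WT arrays by replicate, in opposite directions.

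Ell2 had the largest difference of the members. Its protein speeds transcription elongation and, in plasma cells, favours the secreted form of the antibody heavy-chain mRNA. It read 7.82, 7.70, 7.65 and 7.91 in Cd72+/-;Pax5+/- (replicates 1 to 4), 8.72, 8.83, 8.88 and 8.58 in Pax5+/-, and 7.04, 6.86, 7.15 and 7.10 in WT. No array of any group overlapped another group, with Pax5+/- highest, Cd72+/-;Pax5+/- between and WT lowest. The means were 7.77 ± 0.117 in Cd72+/-;Pax5+/-, 8.75 ± 0.133 in Pax5+/- and 7.04 ± 0.127 in WT (SD, n = 4). Relative to WT, Ell2 rose 3.28-fold in Pax5+/- (1.715 on the log2 scale, SE 0.0834, limma adjusted p = 4.76e-08). It rose 1.66-fold in Cd72+/-;Pax5+/- against WT (0.73, limma adjusted p = 0.000102), and it was 1.98-fold lower in Cd72+/-;Pax5+/- than in Pax5+/- (-0.98, limma adjusted p = 6.25e-06). These calls held with the closest pairs of arrays averaged (limma adjusted p = 0.00204, 0.0193 and 0.00693 in the same order). Replicates 1 and 3 and replicates 2 and 4 differed by 0.095 in Pax5+/- and 0.115 in WT, far less than the groups did.

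The partners of Ell2 in elongation and mRNA processing moved less. Of 17 measured, Mllt3, a subunit of super elongation complexes, rose in Pax5+/- against WT (0.43) and none fell, a share near the 4.28% of all clusters that rose. Set against WT, where 7.78% of all clusters were called, Cd72+/-;Pax5+/- cells differed in 3 of the 17. Mllt3 (0.34) and the elongation kinase Cdk9 (0.23) rose and the Ell2 paralogue Ell3 fell (-0.29). Against Pax5+/-, where 5.35% of all clusters were lower, the scaffold Aff4 was lower (-0.44). No partner was called in any comparison with the closest pairs averaged (limma adjusted p = 0.135 to 0.425 for these calls). The medians of the list were -0.058 in Cd72+/-;Pax5+/- against WT and -0.068 in Pax5+/- against WT. Hnrnpf, which competes in the choice of the heavy-chain polyadenylation site, and Hnrnph1 did not pass (-0.21 and -0.08 in Pax5+/- against WT).

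Xbp1, the transcription factor that builds the secretory apparatus, read 9.81, 9.82, 9.83 and 9.84 in Cd72+/-;Pax5+/-, 9.47, 8.95, 9.31 and 8.87 in Pax5+/-, and 9.70, 10.71, 9.74 and 10.68 in WT. Every Pax5+/- array lay below every array of the other groups, and the Cd72+/-;Pax5+/- arrays were nearly equal. The mean of replicates 1 and 3 minus that of replicates 2 and 4 was -0.975 in WT and 0.48 in Pax5+/-. The means were 9.825 ± 0.0129, 9.15 ± 0.287 and 10.21 ± 0.563 in the same order of groups (SD, n = 4). Xbp1 was 2.08-fold lower in Pax5+/- than in WT (-1.06, SE 0.223, 95% interval -1.54 to -0.57, limma adjusted p = 0.0101). The difference of 0.675 in Cd72+/-;Pax5+/- against Pax5+/- did not pass, although the groups did not overlap (limma adjusted p = 0.0822). Nor did -0.38 in Cd72+/-;Pax5+/- against WT (95% interval -0.87 to 0.10). The first was called under 5 of 21 alternatives, the looser threshold of 0.1 among them. The second was called under 1 of 21, without replicates 1 and 3 of WT and Pax5+/-. The size of the fall in Pax5+/- depended on which arrays of both groups were used. It was -1.785 without replicates 1 and 3 of WT and Pax5+/- and -0.33 without replicates 2 and 4. It lost its call with the closest pairs averaged (limma adjusted p = 0.397) and with only the compared groups in the fit (limma adjusted p = 0.061).

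Other measures divided the WT arrays as Xbp1 did, in either direction. The mean of 15 pro-B identity genes was 11.04 and 10.97 on WT replicates 2 and 4, where Xbp1 was high, and 11.79 and 11.82 on replicates 1 and 3. Bhlha15, a secretory-cell transcription factor known as a target of Xbp1, read 7.35 and 7.13 on WT replicates 2 and 4 and 6.29 and 6.34 on replicates 1 and 3, and was singled out after its values were seen. It lay between 6.55 and 6.69 in Cd72+/-;Pax5+/- and between 6.41 and 6.52 in Pax5+/-. Bhlha15 is 1 of 21 measured plasma-cell identity genes, whose mean went the other way inside WT. That mean was 8.239 and 8.238 on WT replicates 2 and 4, and 8.522 and 8.53 on replicates 1 and 3. The part of these measures in the Xbp1 difference was not tested.

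Prdm1, the repressor that drives plasma-cell differentiation, differed little and passed in no comparison. It read 4.93, 4.95, 4.85 and 5.01 in Cd72+/-;Pax5+/-, 4.98, 5.05, 5.16 and 5.02 in Pax5+/-, and 5.05, 5.06, 5.02 and 4.96 in WT. The groups overlapped throughout, and the mean over all arrays was above that of 11.5% of the tested clusters. The difference was 0.03 in Pax5+/- against WT (95% interval -0.08 to 0.14) and -0.09 in Cd72+/-;Pax5+/- against WT (95% interval -0.20 to 0.03). It was largest in Cd72+/-;Pax5+/- against Pax5+/-, at -0.12 (95% interval -0.23 to -0.005, limma adjusted p = 0.202). No detection call is in the values used here, so a signal this low cannot be set apart from background.

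The sensor upstream of Xbp1 went the other way. Ern1 rose by 0.66 in Pax5+/- against WT (limma adjusted p = 0.000166, SE 0.0805) and in Cd72+/-;Pax5+/- against WT by 0.32 (limma adjusted p = 0.03), and was lower in Cd72+/-;Pax5+/- than in Pax5+/- (-0.345, limma adjusted p = 0.0158). Of 9 measured sensors and transducers of the unfolded protein response, Ern1 and the sensor Atf6 (0.29) rose in Pax5+/- against WT and 7 did not pass. In that comparison 4.28% of all clusters rose. Ern1 and Ddit3 (0.31, limma adjusted p = 0.0107) rose in Cd72+/-;Pax5+/- against WT and none of the 9 fell, where 4.12% of all clusters rose. The transcription factors Atf4 (0.705) and Ddit3 (0.51) were higher in Cd72+/-;Pax5+/- than in Pax5+/-, and Ern1 and Creb3l2 (-0.275), named after its value was seen, were lower. Between these groups 4.44% of all clusters were higher and 5.35% lower. With the closest pairs averaged, none of the 9 was called in any comparison.

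Sdc1 encodes syndecan-1 (CD138), the surface proteoglycan by which plasma cells are sorted, and it is present on early B-cell precursors as well. It read 7.72, 7.61, 7.65 and 7.5 in Cd72+/-;Pax5+/-, 8.32, 8.40, 8.47 and 8.37 in Pax5+/-, and 7.85, 7.61, 7.93 and 7.60 in WT. All Pax5+/- arrays lay above all others, and Cd72+/-;Pax5+/- and WT overlapped. Relative to WT, Sdc1 rose 1.56-fold in Pax5+/- (0.64, SE 0.0782, limma adjusted p = 0.000166). It was 1.71-fold lower in Cd72+/-;Pax5+/- than in Pax5+/- (-0.77, SE 0.0782, limma adjusted p = 2.72e-05). Against WT, Cd72+/-;Pax5+/- differed by -0.13 (95% interval -0.30 to 0.04). With the closest pairs averaged the lower level against Pax5+/- kept its call (limma adjusted p = 0.0402) and the rise against WT lost it (limma adjusted p = 0.0825).

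Jchain encodes the chain that joins IgM and IgA into polymers. It read 5.46, 5.44, 5.5 and 5.49 in Cd72+/-;Pax5+/-, 6.68, 5.80, 6.46 and 6.02 in Pax5+/-, and 5.52, 5.93, 5.61 and 6.10 in WT. Replicates 1 and 3 were the high arrays in Pax5+/- and the low arrays in WT, so the groups overlapped, while every Cd72+/-;Pax5+/- array was below every other array. Jchain was 1.7-fold lower in Cd72+/-;Pax5+/- than in Pax5+/- (-0.77, SE 0.173, limma adjusted p = 0.0129), a call that ended with the closest pairs averaged (limma adjusted p = 0.337). The mean over all arrays was above that of 26.3% of the tested clusters, so, as for Prdm1, the level in Cd72+/-;Pax5+/- is not shown to be above background. The difference of 0.45 in Pax5+/- against WT did not pass (limma adjusted p = 0.171). Without replicates 2 and 4 of WT and Pax5+/- it was 1.005, and without replicates 1 and 3 it was -0.105.

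Mzb1 is an ER protein of marginal-zone B cells and plasma cells that helps assemble and secrete IgM. It read 10.94, 11.21, 11.13 and 11.37 in Cd72+/-;Pax5+/-, 11.02, 10.52, 10.69 and 10.49 in Pax5+/-, and 11.21, 11.12, 11.34 and 11.03 in WT. The Pax5+/- arrays were the lowest, with replicate 1 reaching 11.02, just under the lowest WT array and above the lowest Cd72+/-;Pax5+/- array. Mzb1 was 1.41-fold lower in Pax5+/- than in WT (-0.495, SE 0.12, limma adjusted p = 0.0235) and 1.4-fold higher in Cd72+/-;Pax5+/- than in Pax5+/- (0.48, limma adjusted p = 0.0225). The first call ended without Pax5+/- replicate 2, 3 or 4 or WT replicate 1 or 3 (limma adjusted p = 0.0503 to 0.0795), and the second without Pax5+/- replicate 2, 3 or 4 or Cd72+/-;Pax5+/- replicate 2, 3 or 4 (limma adjusted p = 0.052 to 0.0715). Both ended with the closest pairs averaged (limma adjusted p = 0.334 and 0.284).

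**Figure D2:**
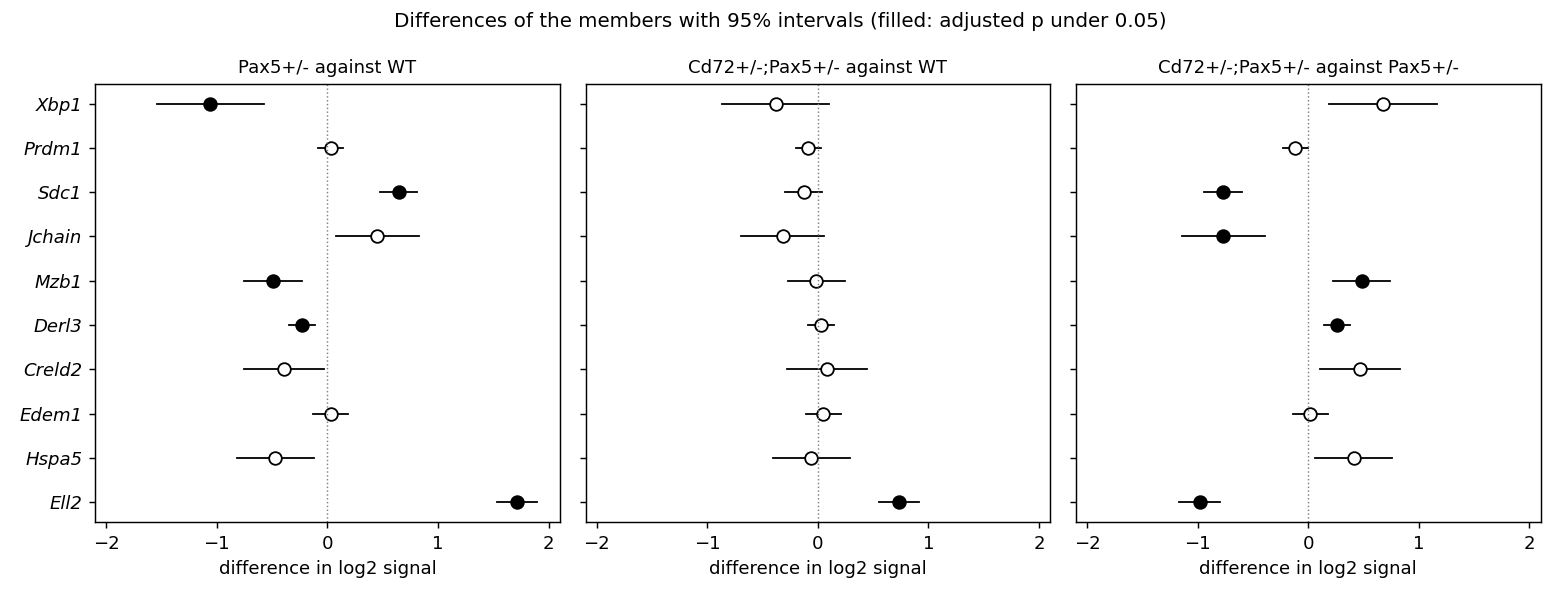
Difference in log2 signal (horizontal axis) of each member in the 3 comparisons, with 95% intervals and filled points where the adjusted p was under 0.05. Xbp1, Mzb1 and Derl3 lie left of 0 and Ell2 and Sdc1 right of it in Pax5+/- against WT, and only Ell2 is filled in Cd72+/-;Pax5+/- against WT.

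The ER members divide into folding helpers (Hspa5, the chaperone BiP, and Creld2, a secreted and ER-resident stress protein) and members of ER-associated degradation (Derl3, of the derlin family that passes misfolded proteins back to the cytosol, and Edem1, a lectin that marks misfolded glycoproteins). The promoters of 3 of them held the core of the ER stress response element, which is bound by Atf6 and Xbp1 with the factor NF-Y. The core searched was CCAAT, then 9 bases of any kind, then CCACG, on both strands. RefSeq promoter entries (GRCm38.p6) of 9 members were searched, and Mzb1 was left out of the search. Hspa5, Derl3 and Creld2 held the core within 250 bases before and 50 after the start. Jchain, Edem1, Prdm1, Xbp1, Sdc1 and Ell2 did not hold this core. It was present in 0.12% of all 32544 different promoter sequences. The other cores searched, TGACGTGG and ATTGG followed by any base and CCACG, were found in none of the 9 and in 0.682% and 0.0369% of all promoters. A match describes the letters only. The elements are shown because Hspa5 and Creld2, both low on Pax5+/- replicates 2 and 4, share this sequence with Derl3, which was not divided that way, with the searched letters in capitals, read in the direction of the element:
Hspa5 element: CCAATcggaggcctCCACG
Creld2 element: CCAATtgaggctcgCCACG
Derl3 element: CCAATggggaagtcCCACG

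The element lies at chr2:34772025-34772043 on the strand of Hspa5, from -65 to -47 relative to its start. It lies at chr15:88819520-88819538, from -126 to -108 relative to the start of Creld2, and at chr10:75893242-75893260, from -156 to -138 relative to the start of Derl3, on the opposite strand in both. The 250 bases before each start, on the strand of the gene (plus in all 3), run as follows, with the element in capitals, at chr2:34771840-34772089, chr15:88819396-88819645 and chr10:75893148-75893397:
Hspa5: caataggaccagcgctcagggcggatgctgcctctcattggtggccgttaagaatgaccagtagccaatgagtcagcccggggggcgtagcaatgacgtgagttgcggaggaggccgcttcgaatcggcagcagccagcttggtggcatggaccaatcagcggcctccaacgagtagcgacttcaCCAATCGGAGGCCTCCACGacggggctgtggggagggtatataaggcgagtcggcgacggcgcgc
Creld2: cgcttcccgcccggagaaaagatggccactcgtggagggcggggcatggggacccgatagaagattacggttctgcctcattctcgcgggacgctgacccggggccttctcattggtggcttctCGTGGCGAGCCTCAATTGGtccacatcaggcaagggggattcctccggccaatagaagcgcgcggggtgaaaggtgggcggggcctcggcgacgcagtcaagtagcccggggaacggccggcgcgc
Derl3: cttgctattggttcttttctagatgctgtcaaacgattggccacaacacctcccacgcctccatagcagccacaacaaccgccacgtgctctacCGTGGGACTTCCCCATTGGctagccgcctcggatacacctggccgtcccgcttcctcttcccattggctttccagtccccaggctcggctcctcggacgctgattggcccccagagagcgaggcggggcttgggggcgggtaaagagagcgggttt

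Hspa5 read 12.32, 12.35, 12.44 and 12.45 in Cd72+/-;Pax5+/-, 12.34, 11.62, 12.35 and 11.61 in Pax5+/-, and 12.33, 12.53, 12.34 and 12.60 in WT. Pax5+/- replicates 2 and 4 were the low arrays, and Pax5+/- replicates 1 and 3 lay within the range of the other groups. The difference of -0.47 in Pax5+/- against WT (SE 0.16) did not pass (limma adjusted p = 0.115). The same difference passed without Pax5+/- replicate 1 (-0.59, limma adjusted p = 0.0367) or replicate 3 (-0.59, limma adjusted p = 0.0395) and after quantile normalization (-0.55, limma adjusted p = 0.0339). Against WT, Cd72+/-;Pax5+/- differed by -0.06 (95% interval -0.41 to 0.29), and against Pax5+/- by 0.41 (limma adjusted p = 0.145, and 0.0493 without Pax5+/- replicate 1).

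Creld2 divided the Pax5+/- arrays in the same way. It read 9.45, 9.5, 9.47 and 9.61 in Cd72+/-;Pax5+/-, 9.46, 8.73, 9.27 and 8.68 in Pax5+/-, and 9.29, 9.60, 9.15 and 9.66 in WT. Replicates 1 and 3 exceeded replicates 2 and 4 by 0.66 in Pax5+/-, and fell short of them by 0.41 in WT (-0.41). The difference of -0.39 in Pax5+/- against WT did not pass (limma adjusted p = 0.23), nor did 0.47 in Cd72+/-;Pax5+/- against Pax5+/- (limma adjusted p = 0.103). The second passed without Pax5+/- replicate 1 (0.61, limma adjusted p = 0.0226). Without replicates 1 and 3 of WT and Pax5+/- the first was -0.925, and without replicates 2 and 4 it was 0.145.

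Derl3 differed by little. It read 7.79, 7.79, 7.72 and 7.77 in Cd72+/-;Pax5+/-, 7.38, 7.55, 7.54 and 7.55 in Pax5+/-, and 7.64, 7.82, 7.70 and 7.78 in WT. Every Pax5+/- array lay below every other array, with replicate 1 lowest. Derl3 was 1.17-fold lower in Pax5+/- than in WT (-0.23, SE 0.0542, limma adjusted p = 0.0199) and 1.2-fold higher in Cd72+/-;Pax5+/- than in Pax5+/- (0.26, SE 0.0542, limma adjusted p = 0.00756). The call against WT ended under 8 of 21 alternatives. Among them were omission of WT replicate 2 or 4 (limma adjusted p = 0.067 and 0.0631), array weights (limma adjusted p = 0.0527) and the closest pair as a random block. It also ended with the closest pairs averaged (limma adjusted p = 0.383), where the call against Pax5+/- ended too (limma adjusted p = 0.244).

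Edem1 read 9.31, 9.36, 9.44 and 9.37 in Cd72+/-;Pax5+/-, 9.35, 9.32, 9.30 and 9.43 in Pax5+/-, and 9.15, 9.49, 9.21 and 9.43 in WT. The groups overlapped, and the WT arrays held the lowest and the highest value. The difference was 0.03 in Pax5+/- against WT (95% interval -0.13 to 0.19), 0.05 in Cd72+/-;Pax5+/- against WT (95% interval -0.11 to 0.21) and 0.02 in Cd72+/-;Pax5+/- against Pax5+/- (95% interval -0.14 to 0.18).

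Around these members, the larger ER machinery moved in few genes. Of 27 other ER chaperones and oxidoreductases, 1 rose and 3 fell in Pax5+/- against WT, against 4.28% and 3.2% of all clusters, with a list median of -0.19 against -0.005 over all clusters. The disulfide-forming oxidase Ero1b fell by 0.50 and the ER lumenal protein Erp29 rose by 0.29, while the chaperones Hsp90b1 and Canx, at -0.45 and -0.32, did not pass. Of the same 27, 3 fell in Cd72+/-;Pax5+/- against WT, among them Ero1b (-0.72) and its paralogue Ero1a (-0.33), and none rose. In Cd72+/-;Pax5+/- against Pax5+/-, 1 of the 27 was higher, Sil1 (0.18), and none was lower. The list median there was 0.152 against 0.005 over all clusters. Of 19 other genes of ER-associated degradation, Ube2j1, a ubiquitin-conjugating enzyme of the ER membrane, fell in Pax5+/- (-0.46) and in Cd72+/-;Pax5+/- (-0.335) against WT. The lectin Os9 rose in Pax5+/- against WT (0.28), which made 1 higher and 1 lower there. Herpud1, a membrane protein of the degradation complex, rose in Cd72+/-;Pax5+/- against WT (0.26), again 1 higher and 1 lower. Between Cd72+/-;Pax5+/- and Pax5+/-, 1 was higher, the ubiquitin ligase Syvn1 (0.28, named after its value was seen), and 2 were lower, Os9 (-0.25) and the lectin Erlec1 (-0.39). Of all clusters, 4.12% rose and 3.66% fell in Cd72+/-;Pax5+/- against WT. Against Pax5+/-, 4.44% were higher and 5.35% lower.

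Few genes of translocation, glycosylation and vesicle transport were called. In Pax5+/- against WT, where 3.2% of all clusters fell, 1 of 21 translocation and signal-peptide genes fell (Srp68, a subunit of the signal recognition particle, -0.21), 2 of 17 N-glycosylation genes fell (Gfpt1, which feeds the hexosamine pathway, -0.42, and the oligosaccharyltransferase subunit Magt1, -0.355), and 2 of 27 vesicle coat and cargo genes fell (the cargo adaptors Sec24d and Sec24a, -0.455 and -0.43). None of the genes in these 3 lists rose, and none passed in Cd72+/-;Pax5+/- against WT. Between Cd72+/-;Pax5+/- and Pax5+/-, only the oligosaccharyltransferase subunit Stt3b was called, higher by 0.265. With the closest pairs averaged, the single call left in the ER lists was Ube2j1 in Pax5+/- against WT (limma adjusted p = 0.0392).

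**Figure D3:**
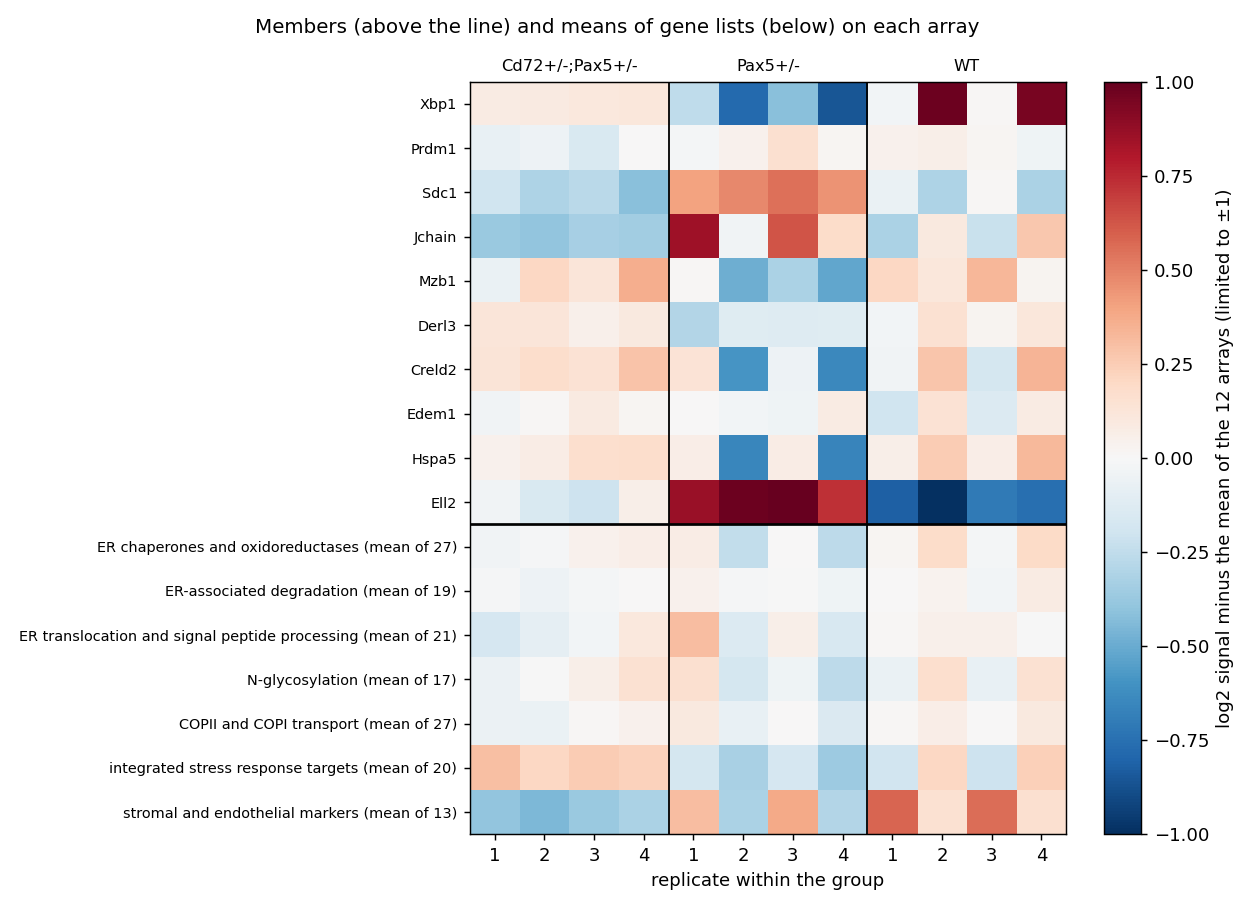
Log2 signal minus the mean of the 12 arrays (colour, limited to 1 in each direction) for the members and for the means of 7 gene lists, on replicates 1 to 4 of each group. Hspa5, Creld2 and the mean of the ER chaperones are low on Pax5+/- replicates 2 and 4, and the mean of the stress response targets is as high on WT replicates 2 and 4 (8.77 and 8.80) as in Cd72+/-;Pax5+/- (8.78 to 8.87).

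The stress branch run by Atf4, which is activated by amino acid shortage as well as by ER stress, differed between the mutant groups. Of 20 of its targets, 10 were higher in Cd72+/-;Pax5+/- than in Pax5+/- and none lower, against 4.44% of all clusters called higher, and the list median was 0.389 against 0.005 over all clusters. Among them were the transcription factors Atf3 (1.005) and Atf5 (1.035), the pseudokinase Trib3 (1.07) and the mitochondrial folate enzyme Mthfd2 (0.98). In Pax5+/- against WT, Trib3 (-0.635) and Mthfd2 (-0.75) fell and none rose, where 3.2% of all clusters fell and 4.28% rose. Against WT, 3 rose in Cd72+/-;Pax5+/-, Atf3 by 0.93 and Atf5 by 0.77 among them, where 4.12% of all clusters rose. The list mean was 8.78 to 8.87 in Cd72+/-;Pax5+/- and 8.205 to 8.40 in Pax5+/-, while in WT it was 8.77 and 8.80 on replicates 2 and 4 but 8.37 and 8.355 on replicates 1 and 3. With the closest pairs averaged, Atf3 was the single call of the list in Cd72+/-;Pax5+/- against Pax5+/- (limma adjusted p = 0.00351) and against WT (limma adjusted p = 0.00701).

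Other genes of plasma-cell identity and the B-cell factors opposed to it moved in both directions. Of 21 plasma-cell genes, 3 rose in Pax5+/- against WT, among them Irf4, which drives plasma-cell differentiation (0.55), and Zbtb20, a zinc-finger factor of plasma cells (0.72), and none fell, against 4.28% and 3.2% of all clusters. Cd72+/-;Pax5+/- cells had 3 that rose against WT, the surface receptor Slamf7 (2.71), Irf4 (0.44) and the cytokine receptor subunit Il6st (0.44), and 2 fell, with Zbtb20 at -0.725. There 4.12% of all clusters rose and 3.66% fell. In Cd72+/-;Pax5+/- against Pax5+/-, Slamf7 (2.86) and Il6st (0.31) were higher and Zbtb20 was lower (-1.44). Between these groups 4.44% of all clusters were higher and 5.35% lower. Of 16 opposed factors, Spib, which restrains plasma-cell differentiation, fell in Pax5+/- against WT (-1.27), and Mta3, a cofactor of Bcl6, rose (0.47), in all 2 up and 3 down including Pax5. Ciita, the class II transactivator, rose in Cd72+/-;Pax5+/- against WT (0.695) and Irf8 fell (-0.615), with 3 genes up and 3 down. In Cd72+/-;Pax5+/- against Pax5+/-, 2 were higher, Spib (0.89) and Ciita (0.55), and 2 were lower, among them Irf8 (-0.41). The shares of all clusters given for the plasma-cell genes apply to the opposed factors too. The medians of these lists lay between -0.046 and 0.025 in the comparisons with WT. None of the calls of either list in Pax5+/- against WT was left with the closest pairs averaged (limma adjusted p = 0.14 for Irf4, 0.56 for Zbtb20, 0.114 for Spib and 0.0677 for Mta3). In Cd72+/-;Pax5+/- against WT, Slamf7, Ciita and Mta3 kept theirs (limma adjusted p = 0.0122, 0.0227 and 0.0277), and Irf4, Il6st, Zbtb20 and Irf8 did not (0.238, 0.15, 0.512 and 0.112). In Cd72+/-;Pax5+/- against Pax5+/-, only Slamf7 and Ciita kept theirs (limma adjusted p = 0.00768 and 0.0349).

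By the root mean square difference of array-by-array deviations over the 12 arrays, the genes nearest to Xbp1 among 19937 were Kirrel, Utp20, Vat1l, Gm6020 and Prss57, at 0.204 to 0.218, where Xbp1 itself deviated from its own mean by 0.539. None of the other members was among them. Vat1l, for example, averaged 10.11 in Cd72+/-;Pax5+/-, 9.52 in Pax5+/- and 10.62 in WT. The nearest to Prdm1 were Scnn1b, Cldn15, Gbp2b, Chit1 and Olfr633, at 0.0413 to 0.0459 where Prdm1 itself deviated by 0.075.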

How the data were processed

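Per the labels, biotin-labelled targets from total RNA were read on Affymetrix Mouse Gene 1.0 ST arrays, and the series text names Transcriptome Analysis Console 4.0.3. The authors deposited log2 signals per transcript cluster, with medians of 6.91 to 7.005 on the 12 arrays. How background, normalization and summarization were handled was not stated in any label or header. No further normalization was applied.

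GEO's platform annotation pairs 23410 of 28944 clusters with a symbol, 21789 of them with a single one. A mean per group was fitted to these 23410 clusters over all arrays with limma 3.58.1 in R 4.3.3 (9 residual and 3.28 prior degrees of freedom). Calls required a Benjamini-Hochberg adjusted p under 0.05. Intervals are 95% intervals of the moderated fit. The number of arrays limits the precision.

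The members and the gene lists were chosen with earlier results of these data known. The lists were written from general knowledge, and some genes are in more than 1 list. All members were named. List genes were named from up to 4 called with the smallest adjusted p and up to 2 that passed nowhere. Not all of these are named, so a missing name does not mean no call. Other names were chosen after their values were seen. Of 9 plasmacytoid dendritic markers, not described above, 2 rose and 1 fell in Pax5+/- against WT (4.28% and 3.2% of all clusters). In Cd72+/-;Pax5+/- against WT 2 rose and 0 fell (4.12% and 3.66%), and against Pax5+/- 2 were higher and 1 lower (4.44% and 5.35%). Promoters come from RefSeq (GRCm38.p6), and coordinates are printed only for them. Tables and figures were made in Python (3.11.15) using matplotlib 3.10.9 and pandas 2.3.3. The alternatives tried were other array scalings, filters, priors, weights and thresholds, omission of each array, and closest pairs averaged or as a random block. Omission of replicates 1 and 3, or of 2 and 4, of WT and Pax5+/- was added after the arrays were seen.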

Additional observations from a re-analysis of the deposited data

Results flagged for a closer look

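Derl3 in Pax5+/- had a lowest array, replicate 1 at 7.38, far from the other 3 at 7.54 to 7.55, with a gap of 0.941 of the group's range (Dixon's ratio, past its 95% critical value). It was the only flag among 30 sets of 4 arrays, and chance flags about 1 in 20. Without that array the fall of Derl3 in Pax5+/- against WT kept its call (-0.19, limma adjusted p = 0.0452).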

How the results depend on the processing

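Across the members, 542 values under alternatives kept direction and call, 39 lost a call, 22 gained one and 21 changed sign. Ell2 in Pax5+/- against WT kept its call under every alternative run. With the closest pairs of arrays averaged, the members called were 1 in Pax5+/- against WT and 2 in Cd72+/-;Pax5+/- against Pax5+/-, and the clusters called were 282 in Pax5+/- against WT, 290 in Cd72+/-;Pax5+/- against WT and 420 in Cd72+/-;Pax5+/- against Pax5+/-; this fit has fewer samples. The closest pair as a random block gave 3 members in Pax5+/- against WT, and 1133, 1031 and 1398 clusters in the same order of comparisons. With only the groups compared, 2 members were called in Pax5+/- against WT. Array weights gave 2787 clusters in Cd72+/-;Pax5+/- against WT and 8 members in Cd72+/-;Pax5+/- against Pax5+/-, and the cause was not tested. An unadjusted p under 0.05 with over 2-fold change gave 2, 0 and 0 members and 224, 214 and 281 clusters. Without replicates 1 and 3 of WT and Pax5+/-, 3 members passed in Cd72+/-;Pax5+/- against WT and 8 against Pax5+/-, with 5359, 4427 and 4757 clusters. Without replicates 2 and 4, 4 members passed in Cd72+/-;Pax5+/- against WT, with 4780 clusters, and 4512 clusters passed against Pax5+/-. Each of these last fits, added after the arrays were seen, keeps a single closest pair in WT and Pax5+/-, so the spread is smaller by construction.

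Leaving out each array in turn gave 4 to 6, 1 to 1 and 4 to 7 members and 1338 to 1959, 1257 to 1774 and 1667 to 2331 clusters. Signs changed only in differences that had not passed. Without replicates 1 and 3, Jchain (-0.105) and Edem1 (-0.085) turned in Pax5+/- against WT, Sdc1 (0.015), Mzb1 (0.0875), Derl3 (-0.0325), Creld2 (-0.1225) and Edem1 (-0.09) in Cd72+/-;Pax5+/- against WT, and Edem1 (-0.005) in Cd72+/-;Pax5+/- against Pax5+/-. Without replicates 2 and 4, Creld2 (0.145) and Hspa5 (0.01) turned in Pax5+/- against WT, and Xbp1 (0.105) and Hspa5 (0.055) in Cd72+/-;Pax5+/- against WT. Quantile normalization turned Mzb1 (0.0174) in Cd72+/-;Pax5+/- against WT. Leaving out 1 array gave -0.00583 to 0.0542 for Prdm1 and -0.0267 to 0.0867 for Edem1 in Pax5+/- against WT. It gave -0.0817 to 0.0617 for Mzb1, -0.00917 to 0.161 for Creld2 and -0.00667 to 0.107 for Edem1 in Cd72+/-;Pax5+/- against WT, and -0.00333 to 0.0467 for Edem1 in Cd72+/-;Pax5+/- against Pax5+/-. The cause was not tested.

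Averaging a gene's clusters had nothing to change, since each member has 1 cluster. No paired analysis was possible because the titles number the arrays through the series and no number is shared between groups. No detection p is given, so how far a low signal lies above background is unknown.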
